A study of Mus musculus with 6 samples.

Results

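Glucagon and the genes that mark the alpha cell were followed in islets of obese mice with and without IRE1α in their endothelial cells. The set held 6 genes, chosen by symbol as hormone and identity genes of the alpha cell, out of 11106 in the count table, and all 6 had enough counts to be tested. Libraries came from pancreatic islets of 6 male mice. The 3 knockout mice (numbered 11, 12 and 13) carried Ern1 fl/fl with the VE-cadherin-Cre-ERT2 transgene, a tamoxifen-inducible Cre driven by an endothelial promoter. The 3 floxed mice (numbered 8, 18 and 19) carried Ern1 fl/fl alone. Mice of both genotypes were given 2 mg tamoxifen on 5 days at the age of 4 weeks and, from 8 weeks of age, ate for 16 weeks a diet in which 60% of the energy was fat. The islets are whole, and cells other than endothelial cells are not targets of the Cre. Total Ern1 RNA ran from 36.03 to 46.8 CPM (counts scaled for library depth by TMM) with the transgene and from 30.1 to 46.0 CPM without it, and the log2 fold change of knockout over floxed was 0.05 (edgeR adjusted p = 0.920).

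Alpha cells secrete glucagon when blood glucose is low and in response to amino acids, and glucagon drives glucose output and amino acid breakdown in the liver. Gcg encodes proglucagon, which the convertase PC2 (Pcsk2) cuts to glucagon in alpha cells. Irx1 and Irx2 encode homeodomain transcription factors of the Iroquois family, found in alpha and hardly in beta cells of mouse islets. Ttr encodes transthyretin, a carrier of thyroid hormone and of the retinol-binding protein, which liver, choroid plexus and alpha cells make. Gc encodes the vitamin D-binding protein, another secreted carrier that is mainly a liver product and, within islets, an alpha cell product. Slc38a5 encodes a transporter for glutamine and other neutral amino acids, which mouse alpha cells need in order to multiply when glucagon signalling is blocked, and mouse acinar cells of the exocrine pancreas express it too.

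The promoters of Gcg, Gc and Slc38a5 are shown because the first is the hormone gene and the others had the smallest p-values of the 6 between the genotypes. Each is 300 bases, 250 before and 50 after the start site, from RefSeq on GRCm38.p6, written 5′ to 3′ on the gene's strand. The intervals are chr2:62483604-62483903 on the minus strand for Gcg, chr5:89457849-89458148 on the minus strand for Gc and chrX:8271131-8271430 on the plus strand for Slc38a5. Capitals mark, on either strand, the TATA box core TATAAA, the homeodomain core TAAT and GTTAAT, the half-site core of the HNF1 factors, which contains a TAAT.
Gcg promoter: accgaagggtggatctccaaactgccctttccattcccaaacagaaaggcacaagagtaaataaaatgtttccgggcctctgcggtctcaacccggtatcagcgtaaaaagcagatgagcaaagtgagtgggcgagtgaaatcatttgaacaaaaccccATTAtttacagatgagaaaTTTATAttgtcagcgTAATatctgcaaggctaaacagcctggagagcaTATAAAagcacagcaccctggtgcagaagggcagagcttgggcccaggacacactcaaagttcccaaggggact
Gc promoter: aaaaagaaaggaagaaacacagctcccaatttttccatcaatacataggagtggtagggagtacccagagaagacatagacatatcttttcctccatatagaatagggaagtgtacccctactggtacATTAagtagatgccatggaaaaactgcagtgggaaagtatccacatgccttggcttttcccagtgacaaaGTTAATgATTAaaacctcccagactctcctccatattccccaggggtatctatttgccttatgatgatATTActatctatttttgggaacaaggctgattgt
Slc38a5 promoter: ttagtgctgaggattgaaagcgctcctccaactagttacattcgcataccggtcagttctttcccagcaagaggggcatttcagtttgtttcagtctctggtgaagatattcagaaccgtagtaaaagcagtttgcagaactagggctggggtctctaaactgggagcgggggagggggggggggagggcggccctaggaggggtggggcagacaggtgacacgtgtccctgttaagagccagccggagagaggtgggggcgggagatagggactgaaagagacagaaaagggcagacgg

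The Gcg promoter held TATAAA on its own strand 24 bases before the start site, and again on the other strand 72 bases before it. Among 32851 promoters of this length 13.6% hold TATAAA. Homeodomain cores lay 91 and 57 bases before the Gcg start site. In Gc there were 4 such cores, and GTTAAT began 52 bases before the start, with the core at 50 bases inside it and the core at 45 bases just after it. GTTAAT is present in 7.10% of promoters, and TAAT in 58.0%. The Slc38a5 window had no match to any of the 3 motifs. Its GC content was 56.0%, against 47.0% for Gcg, 40.3% for Gc and a median of 52.7% over all promoters. The motifs were picked with the Gcg and Gc sequences in view, and a match describes letters, not binding.

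The 6 genes spanned a wide range of levels. Levels here were TPM, that is, counts divided by the kilobases of exon and then scaled to the same total in each library. Gcg averaged 22321 TPM over the 6 libraries (lowest 18044, highest 33539), rank 5 of 10856 genes with a known length. On that scale Ttr averaged 2599 and Gc 195, ranks 27 and 172. Slc38a5 stood at 13.9 (9.70 to 20.7), Irx2 at 7.93 (5.39 to 9.94) and Irx1 at 7.36 (3.36 to 9.49). Within libraries Slc38a5 lay above Irx2 in 6 of 6, although their ranges over libraries overlapped, and Irx2 lay above Irx1 in 4 of 6, an order within the spread. The ranges of Gcg, Ttr and Gc did not overlap with each other or with the rest. For comparison, Ins2 averaged 369451, Sst 9541 and Pcsk2 601. Each of the 6 genes had counts in every library, and a level in whole islets does not show which cells it came from. In whole islets, fewer cells of a type and less RNA per cell cannot be told apart.

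Of the 6 genes, 0 passed the edgeR quasi-likelihood test between genotypes at a Benjamini-Hochberg adjusted p below 0.05, where 0.406% of all 11080 tested genes did (45 genes). By direction, 0.343% of tested genes were called higher in knockout islets and 0.0632% lower. DESeq2 and limma-voom also called 0 of the 6, where DESeq2 called 5.09% of its genes (3.87% higher, 1.23% lower). At an unadjusted edgeR p below 0.05 there were 2, Gc and Slc38a5, against 17.9% of all tested genes. The median log2 fold change of the 6, knockout against floxed, was -0.28, with 5 negative values and 1 positive value. Over all tested genes the median was -0.0029, with 5599 negative and 5481 positive values. On scaled CPM all 6 genes overlapped between genotypes, where 24.3% of tested genes did not. As shares of library totals 2 of the 6 did not overlap, Gc and Slc38a5, and 21.9% of tested genes did not.

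Floxed 8 stood apart from the other floxed libraries, and this bears on each value that follows. It held the most Gcg, and genes of acute activation stood high in it as in the knockout libraries: 11 immediate early and heat shock genes took 1.18% of its counts, 0.211% and 0.223% in floxed 19 and 18, and 1.73% to 1.81% in knockout libraries. Acinar genes, 25 of 26 listed and each with counts in every library, took 8.88% of the counts in floxed 8, 2.99% and 5.95% in floxed 18 and 19, and 13.2% to 18.9% in knockout libraries. Total counts were close, from 18470720 to 18957444 per library. Knockout 12 stood apart in macrophage genes, which took 0.0353% of its counts and 0.0172% to 0.0254% in the other libraries. Lyz2, which encodes lysozyme, had 871 counts there and 72 to 170 elsewhere. Without floxed 8, 14.3% of 11084 tested genes were called, and without floxed 8 and knockout 12, 12.6% (7.38% higher, 5.19% lower), so the results of the 6 genes are given with and without that library. The part of acute activation in these results was not tested.

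The glucagon gene did not differ between genotypes beyond the spread of the libraries. Gcg (chromosome 2, 62474530 to 62483653, GRCm38) stood at 19231, 17745 and 15831 CPM in knockout 11, 12 and 13. Floxed 8 held 31335 CPM, and floxed 18 and 19 held 15286 and 14583 CPM. Floxed 8 was the highest library, and the 3 knockout libraries lay above the remaining floxed libraries on this scale. The knockout mean was 17602 ± 1705 CPM and the floxed mean 20401 ± 9475 CPM (SD, n = 3 each). On the log2 scale knockout minus floxed was -0.21 (standard error 0.38, 95% interval -1.08 to 0.65, edgeR adjusted p = 0.814). Without floxed 8 its sign turned, to 0.23 (standard error 0.23, edgeR adjusted p = 0.544). With the mean level of acinar genes as a covariate it was -1.005 (edgeR adjusted p = 0.541). As a share of all counts, Gcg took 2.93% in floxed 8, 1.70% in floxed 18 and 1.53% in floxed 19. Knockout 11, 12 and 13 held 1.78%, 1.84% and 1.504%, so on this scale knockout 13 was the lowest library.

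**Figure D1:**
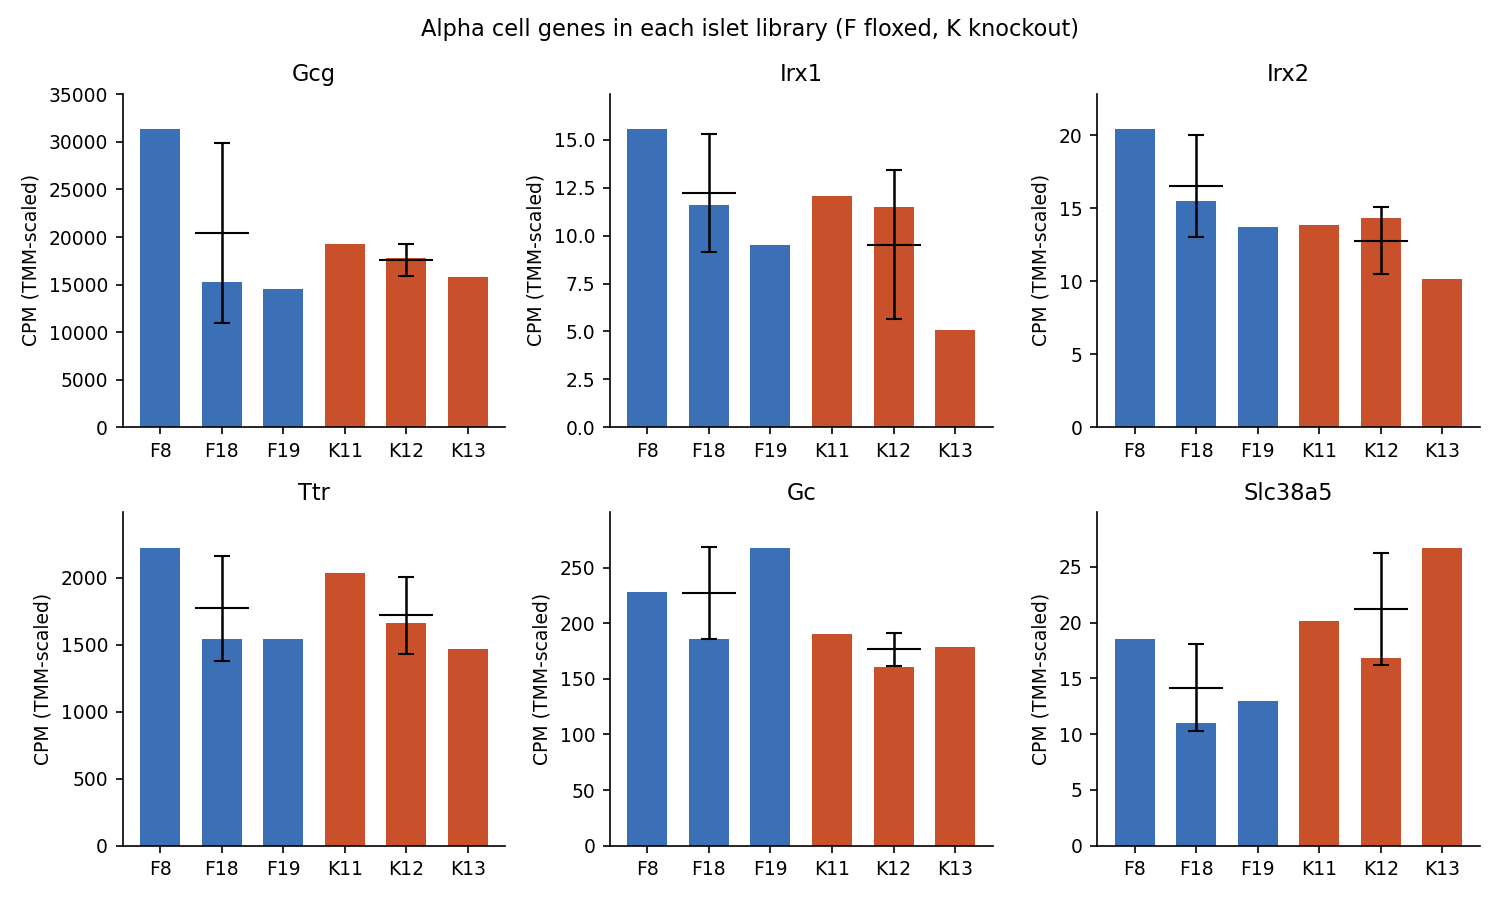
Bars give the level of each of the 6 alpha cell genes in CPM (TMM-scaled) in each library, floxed 8, 18 and 19 in blue and knockout 11, 12 and 13 in orange, and the black marks are the group mean with its SD (n = 3). Floxed 8 is the highest bar for Gcg, Irx1, Irx2 and Ttr, while the highest bar for Gc is floxed 19 and that for Slc38a5 is knockout 13.

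Set against the other islet hormones within the same library, which removes the scaling between libraries, Gcg again showed no genotype difference beyond the spread. For each count of the insulin genes Ins1 and Ins2 there were 0.0477, 0.0654 and 0.0513 Gcg counts in knockout 11, 12 and 13 and 0.0731, 0.0392 and 0.0364 in floxed 8, 18 and 19. The log2 difference of this ratio was 0.21, the opposite sign to that of Gcg on scaled CPM, with an exact two-sided permutation p of 0.60 (0.60 adjusted over the 2 ratios tested). Over the same libraries the insulin genes took 28.2% to 37.2% of counts in knockout and 40.1% to 43.4% in floxed islets. The ratio of Gcg to Sst, the somatostatin gene of delta cells, was 5.27, 5.07 and 5.16 in knockout 11, 12 and 13. It was 5.46 in floxed 8 and 3.95 and 4.16 in floxed 18 and 19, so floxed 8 lay with the knockout libraries. The log2 difference was 0.21 (exact two-sided permutation p = 0.40, adjusted 0.60), and with 3 against 3 libraries this test cannot go below 0.10. Without floxed 8 the differences were 0.52 for insulin and 0.35 for Sst, each with an exact two-sided permutation p of 0.20, the lowest that 3 against 2 allow.

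**Figure D2:**
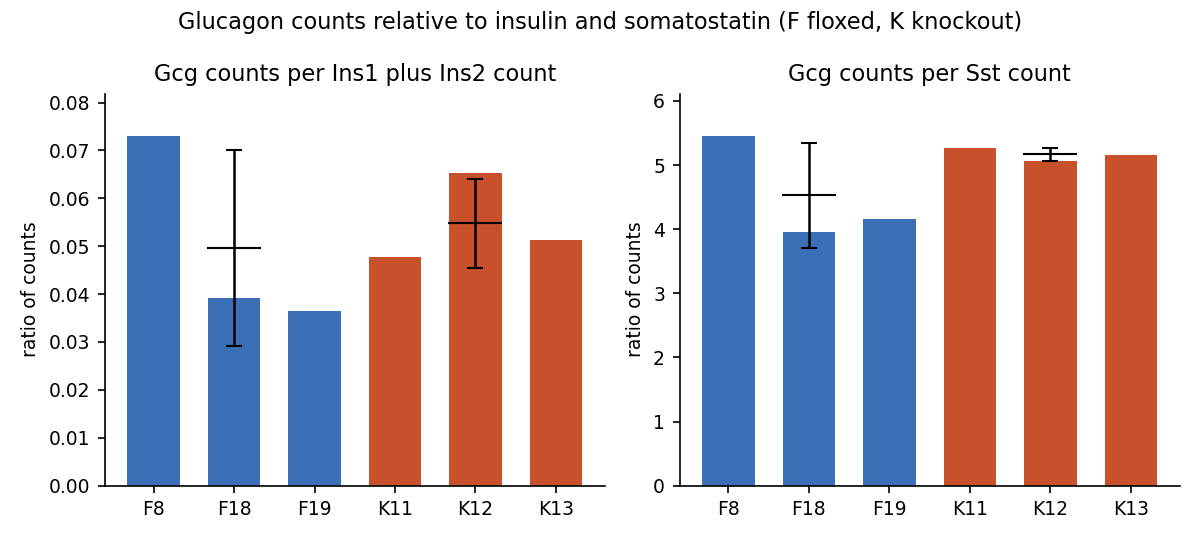
Bars give Gcg counts per count of Ins1 plus Ins2 (left) and per count of Sst (right) in each library, with the group mean and SD in black (n = 3). In the Sst panel floxed 18 and 19 sit at 3.95 and 4.16 and the other 4 libraries between 5.07 and 5.46.

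Hormone genes of the neighbouring cell types were also highest in floxed 8. Sst, at 3066 to 3648 CPM in knockout islets, reached 5738 CPM in floxed 8, with floxed 18 and 19 lower at 3868 and 3502 CPM. Ppy, which encodes pancreatic polypeptide, stood at 3461 CPM in floxed 8, 2164 and 1242 CPM in floxed 18 and 19, and 1494 to 1703 CPM in knockout islets. Of the 5 tested delta and PP cell genes 0 were called, with a median log2 fold change of -0.36, and 0 were called without floxed 8 (median -0.12). DESeq2 called 0 as well, and 0 had an unadjusted edgeR p below 0.05. Among all tested genes edgeR called 0.406% (14.3% without floxed 8) and DESeq2 5.09%, and 17.9% had an unadjusted edgeR p below 0.05.

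Ttr shared its highest library, floxed 8, with Gcg but had a narrower range, its highest library being 1.52 times its lowest against 2.15 times for Gcg. Ttr (chromosome 18, 20664209 to 20674326) stood at 2032, 1662 and 1467 CPM in knockout 11, 12 and 13. Floxed 8 held 2223 CPM, and floxed 18 and 19 each held 1543 CPM. The groups overlapped throughout, with the lowest library and the second highest both knockout. The log2 difference was -0.04 (standard error 0.22, 95% interval -0.55 to 0.47, edgeR adjusted p = 0.947), and it was 0.15 without floxed 8 and 0.06 without knockout 13. For each 1000 Gcg counts there were 92.7 to 106 Ttr counts in 5 libraries and 70.9 in floxed 8. Liver also makes Ttr. Of 9 hepatocyte genes listed, 1 was measured, Apoa2, at 1.22 to 4.63 CPM, and the others, albumin among them, were not analysed here.

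The Iroquois genes were low and shared their highest and lowest libraries. Irx1 (chromosome 13, 71958232 to 71963723) had 211, 226 and 91 counts in knockout 11, 12 and 13 and 269, 241 and 187 counts in floxed 8, 18 and 19, which is 12.0, 11.5 and 5.06 against 15.6, 11.6 and 9.52 CPM. Irx2, which lies near Irx1 on the same chromosome (72624430 to 72634196), stood at 13.8, 14.4 and 10.2 CPM in knockout 11, 12 and 13. For floxed 8, 18 and 19 its values were 20.4, 15.5 and 13.7 CPM. Knockout 13 was the lowest library for both genes and floxed 8 the highest. The log2 fold change was -0.35 for Irx1 (standard error 0.34, 95% interval -1.17 to 0.46, edgeR adjusted p = 0.636) and -0.37 for Irx2 (standard error 0.18, interval -0.78 to 0.05, adjusted p = 0.335). Single libraries decided much of the Irx1 value, which was -0.05 without knockout 13 and -0.15 without floxed 8. Irx2 was -0.23 without knockout 13 and -0.19 without floxed 8. Per 1000 Gcg counts, Irx1 had 0.320 counts in knockout 13, 0.496 in floxed 8 and 0.627 to 0.757 in the other libraries. The further Iroquois genes Irx3, Irx4, Irx5 and Irx6 were not analysed here.

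Gc was lower on average in knockout islets and, unlike Gcg, did not owe its direction to floxed 8. Gc (chromosome 5, 89417511 to 89457898) stood at 191, 161 and 179 CPM in knockout 11, 12 and 13. In the floxed libraries it was 228 CPM for floxed 8, 186 CPM for floxed 18 and 268 CPM for floxed 19. Floxed 18 lay just under knockout 11, so the groups overlapped on this scale. As shares of all counts they did not overlap, at 0.0167% to 0.0176% in knockout and 0.0207% to 0.0282% in floxed islets, where 14.5% of tested genes lay lower in every knockout library. The knockout mean was 177 ± 15.01 CPM and the floxed mean 227 ± 41.0 CPM (SD, n = 3 each). The log2 difference of -0.36 (standard error 0.14, 95% interval -0.69 to -0.04) missed the threshold (edgeR adjusted p = 0.234). It was -0.37 without floxed 8 (adjusted p = 0.151) and -0.23 without floxed 19, the library with the most Gc. With the acinar covariate it was -0.66 (edgeR adjusted p = 0.541). Among genes of vitamin A and D handling, the retinol-binding protein gene Rbp4 had a log2 fold change of -0.16, the vitamin D receptor gene Vdr 0.40 and its partner Rxra 0.27, with edgeR adjusted p of 0.712, 0.213 and 0.428.

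Slc38a5 was the member with a higher mean in knockout islets. It (chromosome X, 8271381 to 8280179) stood at 20.2, 16.8 and 26.7 CPM in knockout 11, 12 and 13. In floxed 8 it was 18.5 CPM, and in floxed 18 and 19 it was 10.997 and 12.9 CPM. Floxed 8 lay above knockout 12, and the other floxed libraries lay below every knockout library. As shares of all counts, from 0.00175% to 0.00254% in knockout and from 0.00122% to 0.00173% in floxed islets, the groups did not overlap, where 7.36% of tested genes lay higher in every knockout library. Its log2 difference was 0.59 (standard error 0.23, 95% interval 0.05 to 1.13, edgeR adjusted p = 0.241), and 0.39 without knockout 13 (adjusted p = 0.580). Without floxed 8 it was 0.82 with a standard error of 0.20, and the gene was then called higher (edgeR adjusted p = 0.0383), as were 8.59% of tested genes.

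The acinar share of the libraries moved with Slc38a5. The library with the most acinar counts, knockout 13 at 18.9%, had the most Slc38a5, and the library with the fewest, floxed 18 at 2.99%, had the least. Knockout 12 was the exception in the order, with 16.2% acinar counts and, on scaled CPM, less Slc38a5 than floxed 8 at 8.88%. As a share of all counts, Slc38a5 took 0.001747% in knockout 12 and 0.001732% in floxed 8. Knockout 11 held more than either on that scale, at 0.001862%. All 25 measured acinar genes had positive log2 fold changes (median 1.53). With all 6 libraries edgeR called 0 of them (23 at an unadjusted p below 0.05) and DESeq2 called 16 higher. Over all tested genes edgeR called 0.406%, 17.9% had an unadjusted edgeR p below 0.05, and DESeq2 called 3.87% higher. Without floxed 8, edgeR called 20 higher, where 8.59% of tested genes were called higher. With the mean acinar level as a covariate in the fit, the log2 fold change of Slc38a5 was -0.14 (standard error 0.31, edgeR adjusted p = 0.902). With library scaling computed without the acinar genes it was 0.59. The part of acinar RNA in the result was not tested beyond these values, and acinar share and genotype differ together, so they cannot be told apart.

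**Figure D3:**
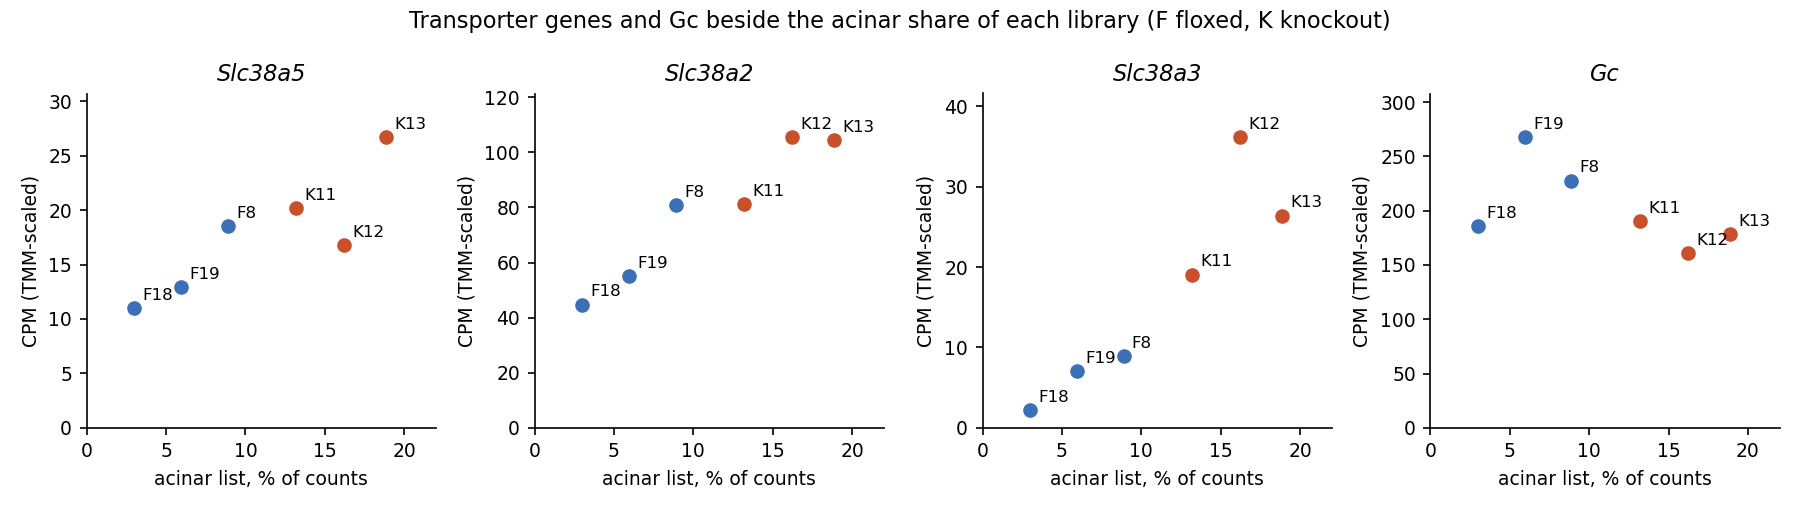
Points are the 6 libraries, floxed in blue and knockout in orange, placed by the percent of counts on the acinar list (x axis) and by the level in CPM (TMM-scaled, y axis) of Slc38a5, Slc38a2, Slc38a3 and Gc. The 3 knockout libraries hold the highest acinar shares, 13.2% to 18.9%, and floxed 8 at 8.88% is next in rank, before floxed 19 at 5.95%.

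Other genes of the SLC38 transporter family split by direction. Of 6 measured, edgeR called 0 with all libraries (median log2 fold change 0.04, 3 positive and 3 negative). At an unadjusted edgeR p below 0.05 there were 4, against 17.9% of all tested genes. DESeq2 called 2 higher, Slc38a2 and Slc38a3, where it called 3.87% of its genes higher. Slc38a2, a sodium-coupled transporter of small neutral amino acids, stood at 81.2, 106 and 104 CPM in knockout 11, 12 and 13. Floxed 8 held 80.8 CPM and floxed 18 and 19 held 44.7 and 55.1 CPM, and the log2 difference was 0.69 (edgeR adjusted p = 0.180). Slc38a3, a glutamine transporter of the same system as Slc38a5, stood at 19.1, 36.2 and 26.4 CPM in the knockout libraries. Its values in floxed 8, 18 and 19 were 8.90, 2.21 and 7.02 CPM, and the log2 difference was 2.19 (adjusted p = 0.131). In both genes floxed 8 was the floxed library nearest to the knockout libraries. Slc38a4 and Slc38a10 had values of -0.26 and -0.27 (adjusted p = 0.247 and 0.276). Exons of Slc38a10 overlap those of an opposite-strand gene, and whether strand was used in counting is unknown here. Without floxed 8, Slc38a2 was called higher (log2 fold change 0.96, edgeR adjusted p = 0.00325), Slc38a4 and Slc38a10 were called lower (-0.35 and -0.38), and Slc38a3 was not called (2.57, adjusted p = 0.0935). In that fit 8.59% of tested genes were called higher and 5.7% lower. With the acinar covariate Slc38a2 was at -0.14 and Slc38a3 at 0.32.

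**Figure D4:**
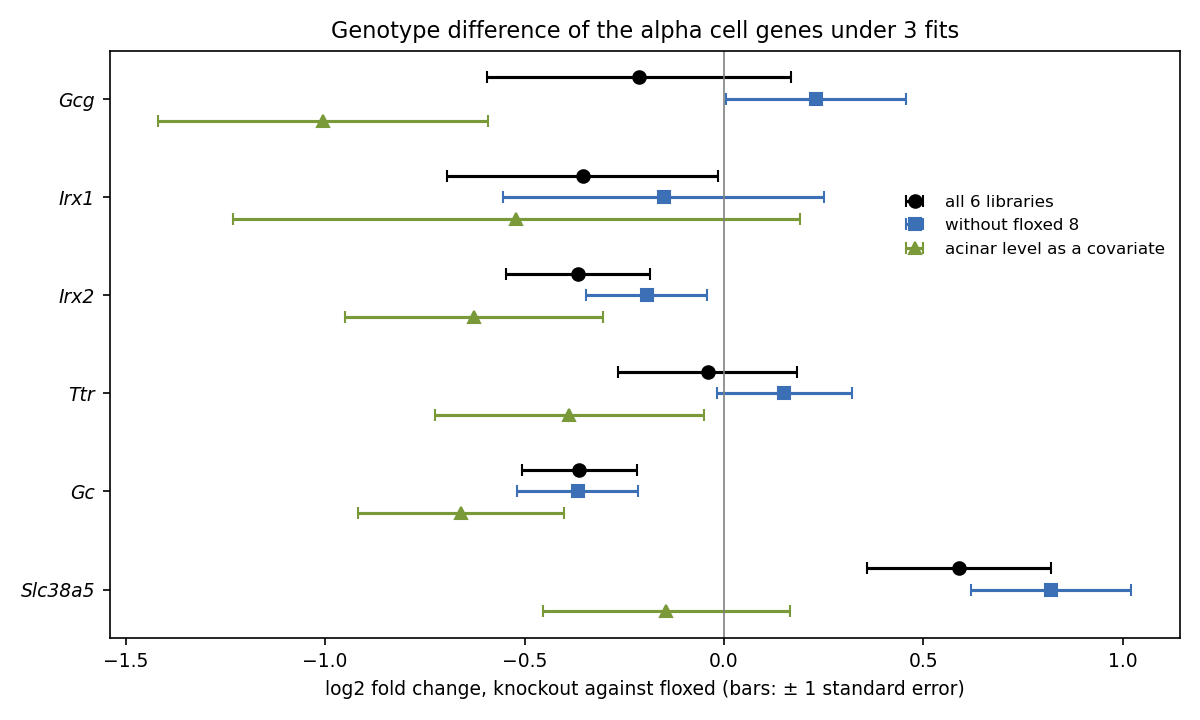
Points are log2 fold changes of the 6 genes, knockout against floxed, from the edgeR fit with all 6 libraries (black circles), without floxed 8 (blue squares) and with the acinar level as a covariate (green triangles), and bars are ± 1 standard error. Gc and the Iroquois genes lie below 0 in all 3 fits, Gcg and Ttr lie above 0 without floxed 8, and Slc38a5 lies below 0 with the covariate.

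Among 6 measured alpha-enriched genes outside the set, 0 were called and the median log2 fold change was 0.07. The chromatin remodeller gene Smarca1 had a value of 0.13, the cationic amino acid transporter gene Slc7a2 one of 0.10 and the ETS factor gene Etv1 one of 0.07 (edgeR adjusted p = 0.705, 0.702 and 0.804). Without floxed 8 all 6 values were positive (median 0.11), still with 0 called. Transcription factors shared by islet endocrine cells gave 0 calls of 7 with a median of 0.03, and the 4 with the smallest p pointed both ways. Insm1 was at 0.19 and Pax6, which also acts on the Gcg promoter, at 0.13, while Nkx2-2 was at -0.15 and Foxa2 at -0.08 (edgeR adjusted p from 0.480 to 0.764). In both lists the unadjusted edgeR p was below 0.05 for 0 genes, and DESeq2 called 0. For all tested genes the shares were 17.9% at that unadjusted p and 5.09% called by DESeq2. The share called by edgeR was 0.406%, and 14.3% without floxed 8.

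The machinery that matures proglucagon had lower means in knockout islets for each of 6 measured genes, with 0 called by edgeR or DESeq2, 0 at an unadjusted edgeR p below 0.05 and a median log2 fold change of -0.19. Pcsk2 stood at 2539, 2320 and 2467 CPM in knockout 11, 12 and 13. Floxed 8, 18 and 19 lay higher at 3057, 2846 and 2779 CPM, with no overlap on this scale, where 10.2% of all tested genes lay lower in every knockout library. Its log2 difference was -0.25 (edgeR adjusted p = 0.542), and its exons overlap 2 antisense genes. Scg5, the chaperone of PC2, Pcsk1, the convertase of the incretin peptides, and Pam, which amidates peptides, had values of -0.19, -0.19 and -0.17. Beta cells, which share these genes, had a median of -0.18 over 14 markers, 12 of them negative. Of these markers 0 were called by edgeR or DESeq2 and 1 had an unadjusted edgeR p below 0.05. Over all tested genes edgeR called 0.406% and DESeq2 5.09%, and 17.9% had an unadjusted edgeR p below 0.05.

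Among receptors and modifiers of glucagon and incretin signalling, edgeR called 0 of 5 measured genes (median log2 fold change -0.27). At an unadjusted edgeR p below 0.05 there were 2, against 17.9% of all tested genes. DESeq2 called 1 lower, Ramp2, where it called 1.23% of its genes lower. The smallest p belonged to Ramp2, a receptor partner that endothelial cells express strongly, at 11.02, 8.83 and 9.90 CPM in knockout 11, 12 and 13. Floxed 8, 18 and 19 held 14.7, 14.2 and 14.2 CPM. These groups did not overlap, where 10.2% of all tested genes lay lower in every knockout library. The log2 difference of Ramp2 was -0.54 (edgeR adjusted p = 0.0800). Exons of Ramp2 share 1103 bases with Vps25 on the same strand, so its counts are uncertain. All 14 measured endothelial markers had negative values as well (median -0.28). With all libraries edgeR called 0 of them (7 at an unadjusted p below 0.05) and DESeq2 3 lower, and without floxed 8 edgeR called 10 lower. Their part in the Ramp2 value was not tested. Dpp4, the protease that inactivates incretins, stood at 30.7 to 32.0 CPM with the transgene and 35.6 to 40.2 CPM without it (log2 difference -0.28, adjusted p = 0.147). Gcgr, the glucagon receptor gene, stood at 15.5, 16.1 and 14.6 CPM in the knockout libraries, against 13.5, 21.2 and 21.1 CPM for floxed 8, 18 and 19 (-0.27, adjusted p = 0.443), with floxed 8 the lowest of the 6 libraries. Without floxed 8, Gcgr, Ramp2 and Dpp4 were called lower, at log2 differences of -0.46, -0.52 and -0.33 (edgeR adjusted p = 0.00975, 0.0220 and 0.0199), where 5.7% of tested genes were called lower. With the acinar covariate 0 were called, where 0 of all 11080 tested genes were called. There Gcgr was at 0.30, Ramp2 at -0.54 and Dpp4 at -0.13, with a list median of 0.14. The endothelial median was -0.04 in that fit.

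The genes whose pattern lay closest to Gcg shared its high value in floxed 8. By Pearson correlation of log2 CPM over the 6 libraries, among 7870 candidate genes, they were Nol12, Ndufs4, Eloc, Ftl1 and Chmp4b, with r from 0.992 to 0.996. Nol12 encodes a nucleolar protein, Ndufs4 a subunit of respiratory complex I, Eloc elongin C, Ftl1 the ferritin light chain and Chmp4b a subunit of the ESCRT membrane machinery. Each had its highest value in floxed 8: Ndufs4, for example, was at 24.2 CPM there and at 14.97 to 17.5 CPM in the other libraries. The coefficients rest on 6 libraries, of which floxed 8 is the high one for each of these genes, and are a description. Ttr ranked 221, Irx2 919, and Slc38a5 and Gc had coefficients of 0.29 and 0.15.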

How the data were processed

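StringTie, HISAT2 and fastp are the tools and mm10 the build named, per the submitters' processing notes. For versions, counting rule and use of strand, nothing is given in the sources used here. Each mouse has 1 column of unnormalized estimated counts in the table that the authors deposited, and 12.8% of 11106 genes had a value that was not whole. The values of the 6 genes were whole.

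Counts were rounded, filtered with filterByExpr (minimum count 10, minimum total 15; 11080 genes kept), scaled by TMM and compared with edgeR's robust quasi-likelihood test (edgeR 4.0.16, limma 3.58.1, DESeq2 1.42.0, R 4.3.3) without covariates. P-values were adjusted by Benjamini-Hochberg over all tested genes. Standard errors come from the F statistic, and log2 CPM carry a prior count of 2. The procedure was tested on simulated data. Levels per length used exon unions of GENCODE M21, and 11090 genes matched RefSeq GRCm38.p6, the assembly of mm10.

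Ratios were compared by exact permutation. Named genes were the members, Ins1, Ins2, Sst and Pcsk2, up to 4 members of each list with the smallest p, and the 5 genes most like Gcg with a mean of at least 10 CPM; 2 further genes under this rule are not reported here. The promoter motifs were chosen after the sequences were read. The members and lists were chosen with earlier results of these data known. Replicates are separately numbered mice.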

Additional observations from a re-analysis of the deposited data

How the results depend on the processing

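Gc, Irx1 and Irx2 kept a negative value under all 17 alternatives (log2 fold changes from -0.66 to -0.23, -0.56 to -0.05 and -0.63 to -0.19). Gcg, at -0.21 with all libraries, was -1.005 with the acinar level as a covariate, 0.23 without floxed 8 and 0.22 without both floxed 8 and knockout 12. Ttr turned to 0.15 without floxed 8, 0.06 without knockout 13 and 0.17 without floxed 8 and knockout 12. Slc38a5 turned to -0.14 with the acinar covariate. It was called without floxed 8 (0.82) and without floxed 8 and knockout 12 (0.96, edgeR adjusted p = 0.00274). Thus 1 of the 6 genes was called there and 0 under the other alternatives. Over all tested genes, 14.3% were called without floxed 8 and 12.6% without floxed 8 and knockout 12. With single libraries left out, log2 fold changes ran from -0.41 to 0.23 for Gcg, -0.18 to 0.15 for Ttr, 0.39 to 0.82 for Slc38a5, -0.49 to -0.23 for Gc, -0.56 to -0.05 for Irx1 and -0.48 to -0.19 for Irx2. The cause of these turns was not tested.

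Over all genes, 45 were called (38 higher, 7 lower), with 4 lower under RLE scaling and 4 lower with scaling computed without acinar genes. DESeq2 called 564 (428 higher, 136 lower), the acinar covariate 0, and the fit without floxed 8 and knockout 12 called 1393 (818 higher, 575 lower). With single libraries left out the count ran from 0 to 1584 (0 to 952 higher, 0 to 632 lower), the highest without floxed 8. The alpha-enriched list had a median of 0.07, from -0.0656 to 0.11 with single libraries left out and -0.31 with the acinar covariate, an alternative chosen after seeing the data. The ratio of Gcg to the insulin genes kept its sign, from 0.0200 to 0.52, as did that to Sst, from 0.12 to 0.35. No paired analysis was possible because the labels give no litter or pairing of the mice and the genotypes share no animal numbers.

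With 3 mice a group the intervals follow the spread between libraries, and were wider for Gcg (standard error 0.38) than for Irx2 (0.18). A p above the threshold does not show equal levels.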
